A study of Mus musculus with 2 samples.

Results

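The Sca1-highest cultured cells are the top 10% of cultured costal-cartilage-derived stem cells (CDSCs) by Ly6a, the gene that encodes the surface protein Sca1. They numbered 454 of the 4543 cultured cells that passed the cell filter, of 10798 cultured barcodes deposited and of 22694 barcodes in the whole series. The cells were chosen by 1 measured value, the Ly6a counts of the cell divided by all its counts, where a count is a unique molecular identifier (UMI), the tag of a single captured RNA molecule. They were set against the 987 cultured cells of the same filter that had 0 Ly6a UMIs, and the 3102 cells between served as a middle group.

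CDSCs are cells of neonatal rib cartilage, taken within a week of birth from CD45.1 or ZsGreen C57BL/6J mice, digested enzymatically and sorted as CD45-CD51+. The cultured CDSCs were such cells grown in minimum essential medium with fetal bovine serum and sequenced at passages 2 to 3, and the primary CDSCs were sequenced without culture. The study asked whether culture changes these cells, and it grouped Ly6a with markers of endothelium. Both libraries are labelled as bone marrow tissue, although the cells came from costal cartilage. In the Sca1-highest cells Col1a1 and the mesenchymal gene Prrx1 were at 635 and 460 CPM (the summed counts of a group, or of a cell, scaled to 1 common total), and Ptprc, which encodes CD45, had 2 UMIs in all. There was 1 library per group, how many mice or litters each library pooled is not given in the sources used here, and the differences given here could not be checked in replicates or tested. Intervals are exact at 95% and cover counting error only.

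Sca1 belongs to the Ly6 family of small proteins held at the outer cell membrane by a lipid (GPI) anchor. It is best known as a marker of blood stem cells in the mouse, and it also marks endothelium and fibroblast-like progenitors that lie around vessels. Interferons are known to induce Ly6a transcription. Ly6a lies among close relatives on chromosome 15, and the reads of neighbouring Ly6 genes can be hard to tell apart.

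The end of the coding sequence of Ly6a and of its neighbour Ly6c1 is shown because Ly6c1 was the gene that moved most with Ly6a, and capitals mark the 8 positions at which the 2 genes differ. Each run holds the last 120 coding bases, on the minus strand of GRCm38, and was read from the GENCODE transcripts Ly6a-201 (chr15:74995262-74995381) and Ly6c1-201 (chr15:75045402-75045521).
Ly6a: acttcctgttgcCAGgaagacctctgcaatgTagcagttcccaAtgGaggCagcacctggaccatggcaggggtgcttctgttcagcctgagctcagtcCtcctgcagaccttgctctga
Ly6c1: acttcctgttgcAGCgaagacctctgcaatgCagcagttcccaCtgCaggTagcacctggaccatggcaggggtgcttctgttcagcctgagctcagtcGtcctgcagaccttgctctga
Over the 396 aligned coding bases the genes were 83.8% identical, and the longest identical run was 48 bases. Of the 1297 different windows of 50 bases in the annotated Ly6a transcripts, 246 (18.97%) also occurred in transcripts of 4 other genes, and 195 of them in Ly6c1. No window of the last 300 bases of Ly6a-201, the end from which this 3′ assay reads, was shared with Ly6c1-201, although the aligned bases there were 86.2% identical.

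The Sca1-highest cells held 25427 Ly6a UMIs, or 663 CPM (interval 655 to 672). In the cells between, Ly6a was at 93.1 CPM. The 987 cells without a Ly6a UMI were chosen for having none, so their counts give no estimate of their Ly6a level. A Sca1-highest cell had from 2 to 776 Ly6a UMIs, with a median of 43.5 and quartiles of 20 and 69. Relative to all UMIs of the cell, the level ran from 336 to 3349 CPM with a median of 531, so the highest and lowest of these cells stood far apart. The group made up 9.99% of the cells and 11.7% of their UMIs but held 52.5% of the Ly6a UMIs.

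There was no gap at the limit. The last cell inside had 29 Ly6a UMIs of 86192 (336.5 CPM), and the next cell outside had 36 of 107056 (336.3 CPM). In all, 117 cells lay within 10% of that limit, 47 of them inside it. Of the cells with 2 to 4 Ly6a UMIs, 16 of 993 were among the Sca1-highest cells, all of them cells with a low total, whereas 140 of 153 cells with 50 to 99 Ly6a UMIs and 60 of 60 with 100 or more were. At a common depth of 5000 UMIs per cell, the variance of Ly6a over all cultured cells was 3.08 times its mean, against a median of 1.13 times for the 633 genes whose mean lay within 20% of it, and only 7 of those genes were higher.

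**Figure D1:**
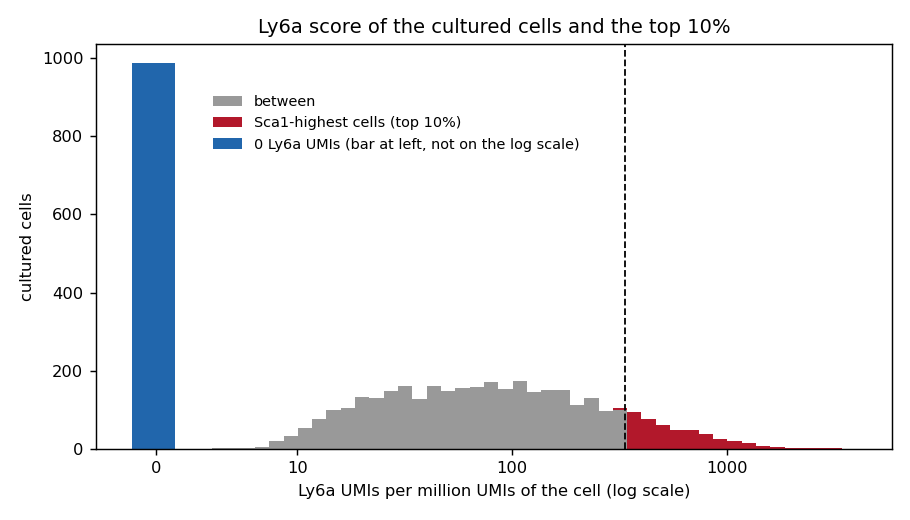
Histogram of the Ly6a score of the 4543 cultured cells, as CPM of each cell on a log axis, with the 987 cells without a Ly6a UMI as a separate bar at the left. The dashed line marks the limit at 336.5 CPM, where grey cells between and red Sca1-highest cells adjoin without a gap.

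Part of such a ranking is counting noise, so every UMI was assigned at random to 1 of 2 equal parts. Cells ranked on part A had 690 CPM of Ly6a in that part and 648 CPM (636 to 660) in part B, which the ranking had not used, and 439 of 454 (96.7%) had a Ly6a UMI there. The 1517 cells with 0 Ly6a UMIs in part A had 22.1 CPM (20.6 to 23.7) in part B, where 34.9% of them had a Ly6a UMI. Cells without a Ly6a UMI in 1 part thus included cells with Ly6a in the other.

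The Sca1-highest cells were deeper than the cells without Ly6a. Their median was 84778 UMIs and 8169 genes per cell, against 39260 UMIs and 6590 genes, and the range within the group was 5477 to 257396 UMIs. Of the 1514 cells in the shallowest of 3 depth bands (5002 to 48492 UMIs), 141 were Sca1-highest and 619 had no Ly6a UMI, and of the 1515 cells in the deepest band (87050 to 339577 UMIs), 222 and 88 were. The Ly6a level of the Sca1-highest cells was alike in all bands, at 675, 647 and 666 CPM. When each cell was thinned to 5000 UMIs, the order of genes per cell turned, with a median of 2160.5 in the Sca1-highest cells and 2332 in the cells without Ly6a. The median mitochondrial share was 1.86% in the Sca1-highest cells and 2.51% in the cells without Ly6a, and genes that span over 100 kb took 10.8% and 15.7% of all UMIs. Because depth, mitochondrial share and long-gene share moved with Ly6a, the gene ratios below were also computed within the depth bands.

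After thinning to 5000 UMIs, 91.6% of the Sca1-highest cells (interval 88.7% to 94.0%) and 34.0% of the cells between (32.4% to 35.7%) had a Ly6a UMI, where before thinning all of them did. Blood cells should lack most stromal genes, so cells with blood cell genes were examined beside these. They cannot give the level of free RNA for Ly6a, because Sca1 itself marks blood stem cells. Only 15 cells had at least 10 UMIs of blood cell genes (median 61920 UMIs), and 3 of them (20%, interval 4.33% to 48.1%) had a Ly6a UMI after thinning. Before thinning 13 of the 15 had a Col1a1 UMI and 10 had a Pf4 UMI, and whether all of them were blood cells was not tested.

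The first question was which other genes differ between Sca1-highest cells and cells without Ly6a. With Ly6a left out, 8765 genes had at least 10 CPM in either group. A gene below 10 CPM in 1 group entered through the other, which fixed its direction. A gene was called at a difference of at least 1.5-fold between the summed levels. On that rule 223 genes (2.54%) were higher and 1483 genes (16.9%) were lower in the Sca1-highest cells. The median log2 ratio over all genes tested was -0.22, so the typical gene was itself below 0. Scaling by trimmed mean of M values (TMM), which removes such a common shift, brought this median to 0.01 and gave 735 higher and 579 lower genes, so that 55.9% of the calls were higher instead of 13.1%. List medians below are therefore to be read against -0.22. For the lists, the TMM shift was added to the ratios of the same 8765 genes, of which 722 were then higher and 591 lower. Counts of list genes with TMM scaling are to be read against these, not against 2.54% and 16.9%.

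The genes called lower were long. Their span on the genome had a median of 88.2 kb, and 44.2% of them exceeded 100 kb, against a median of 28.4 kb and 16.2% for all genes tested and 11.7 kb and 10.3% for the genes called higher. Genes on the same side of 1 in all 3 depth bands made up 214 of the 223 higher and 1456 of the 1483 lower genes, against 6551 of the 8765 genes tested. The bands are parts of the cells that gave the calls, so these shares are no independent check of them. The number of lower genes fell to 764 when the cells without Ly6a were weighted to the depth of the Sca1-highest cells and to 786 among the cells whose long-gene share was at or below the median. The part of depth and of long-gene share in the single ratios was not tested.

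The 12 highest genes with at least 50 CPM are described by what they encode, starting with secreted proteins. Igfbp2, which binds insulin-like growth factors, was at 1257 CPM (1246 to 1269) against 446 CPM (440 to 453), a log2 ratio of 1.49 (1.47 to 1.52). Over the 5 groups ordered by Ly6a, from no Ly6a UMI through the cells between to the Sca1-highest cells, its level was 446, 504, 577, 804 and 1257 CPM. Pappa, a protease that cleaves Igfbp proteins and so releases the growth factors, was at 120 against 41.0 CPM (log2 ratio 1.55, 1.47 to 1.63). The growth factor gene Igf1 lay at the other end, at 13.2 against 77.5 CPM (-2.55, -2.69 to -2.42), with 77.5, 56.6, 46.4, 36.2 and 13.2 CPM over the 5 groups. Igfbp5, a second binding protein, was also lower, at 2.30 against 26.3 CPM (-3.52, -3.85 to -3.20). Igfbp5 reached 10 CPM in the cells without Ly6a alone, which fixed its direction. Another binding protein gene, Igfbp6, had a log2 ratio of -0.13.

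Dcn, which encodes the matrix proteoglycan decorin, was at 148 against 49.3 CPM (log2 ratio 1.58, 1.51 to 1.66), but it was not higher in the cells with little Ly6a, where it was at 39.6 CPM. The secreted Wnt modulator Sfrp2 was at 108 against 45.9 CPM (1.24, 1.16 to 1.32). A small number of cells carried some of these genes. The 10 highest of the 454 cells held 70.7% of the Crct1 UMIs and 58.6% of the Sfrp2 UMIs, against 13.1% of the Ly6a UMIs and 13.8% of those of Fxyd5, a regulator of the sodium pump. Crct1, named for a cysteine-rich C-terminus, had the greatest ratio of the 12 highest genes, 51.8 against 10.6 CPM (2.29, 2.15 to 2.44), with UMIs in 128 of 454 cells.

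The other raised genes were spread more widely over the cells. Protease inhibitors were represented by Serpinb1a (255 against 106 CPM, log2 ratio 1.26) and Serpina3n (83.7 against 32.9 CPM, 1.35), and a surface receptor by Procr, the endothelial protein C receptor that is also used as a stem cell marker (52.5 against 20.7 CPM, 1.34, 1.23 to 1.46). Ndufa4l2, a mitochondrial protein gene known to be induced by low oxygen, was at 87.5 against 28.3 CPM (1.63), the calcium-binding S100b at 56.6 against 20.8 CPM (1.44), Fxyd5 at 114 against 48.8 CPM (1.22) and Sbsn, first known from skin, at 84.4 against 35.2 CPM (1.26). Of the 12 highest genes, 7 increased at each step over the 5 groups, and Serpina3n, Pappa, Dcn, Ndufa4l2 and Crct1 increased at each step but the lowest, from 0 Ly6a UMIs to the lowest cells between.

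**Figure D2:**
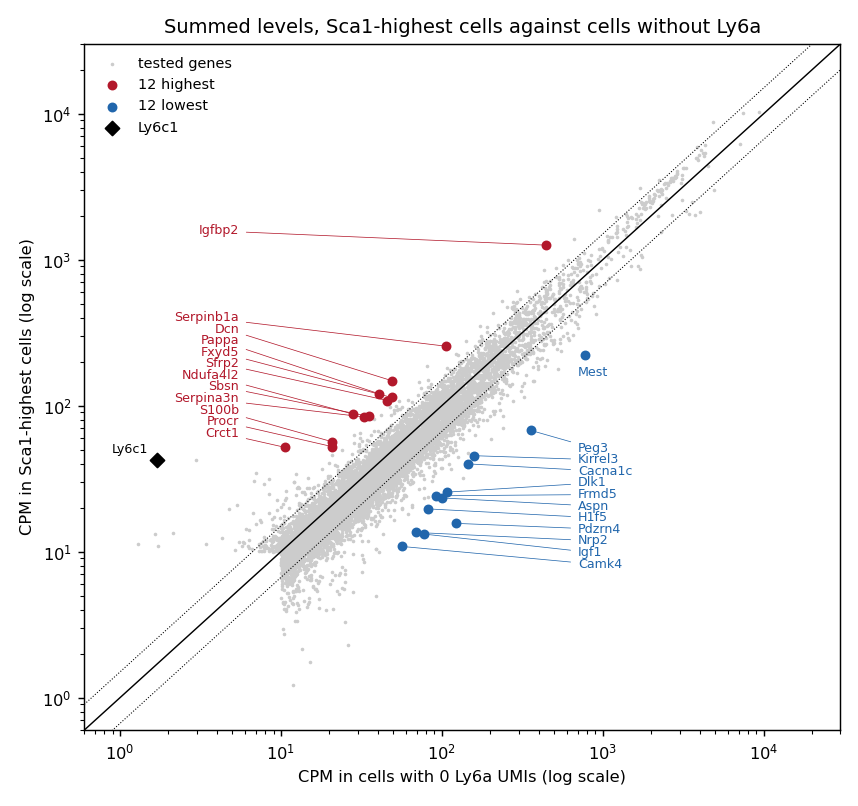
Summed CPM of 8765 tested genes in the Sca1-highest cells (vertical, log axis) against the cells without a Ly6a UMI (horizontal, log axis), with the line of equality and dotted lines at 1.5-fold. Igfbp2 and Serpinb1a stand out among raised genes, Mest and Peg3 among lowered ones, and Ly6c1 lies far to the left, at 42.5 against 1.71 CPM.

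Of the 12 lowest genes, 3 are imprinted. Mest and Peg3, a pair of imprinted genes active from the paternal copy, were at 224 against 780 CPM (log2 ratio -1.80, -1.83 to -1.77) and at 67.8 against 357 CPM (-2.40, -2.46 to -2.34). Mest decreased at each step over the 5 groups, with 780, 671, 529, 347 and 224 CPM, and so did Peg3, with 357, 278, 222, 147 and 67.8 CPM. Dlk1, an imprinted membrane protein of progenitor cells, was at 25.6 against 107 CPM (-2.07, -2.17 to -1.97).

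The largest decrease among genes of at least 50 CPM was that of Pdzrn4, a gene with PDZ and RING domains, at 15.6 against 123 CPM (log2 ratio -2.98, -3.10 to -2.85). Aspn, which encodes the small proteoglycan asporin, was at 23.4 against 99.8 CPM (-2.09). Nrp2, a semaphorin and VEGF co-receptor, was at 13.5 against 69.5 CPM (-2.36), and the calcium-signalling genes Camk4 and Cacna1c were at 10.9 against 56.9 CPM (-2.39) and 39.9 against 145 CPM (-1.86). Kirrel3, a cell adhesion gene, was at 45.5 against 158 CPM (-1.79) and Frmd5 at 24.1 against 92.6 CPM (-1.94). The linker histone gene H1f5, which is transcribed in S phase, was at 19.6 against 81.5 CPM (-2.05), and this ratio shrank to -0.83 without dividing cells. In all, 11 of the 12 lowest genes decreased at each step, and the exception was Nrp2. Of these genes Pdzrn4, Camk4, Nrp2, Frmd5, Cacna1c and Kirrel3 span over 100 kb, whereas Mest (24.9 kb), Peg3 (26.5 kb), Aspn (23.1 kb), Dlk1 (10.5 kb) and H1f5 (0.743 kb) do not.

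**Figure D3:**
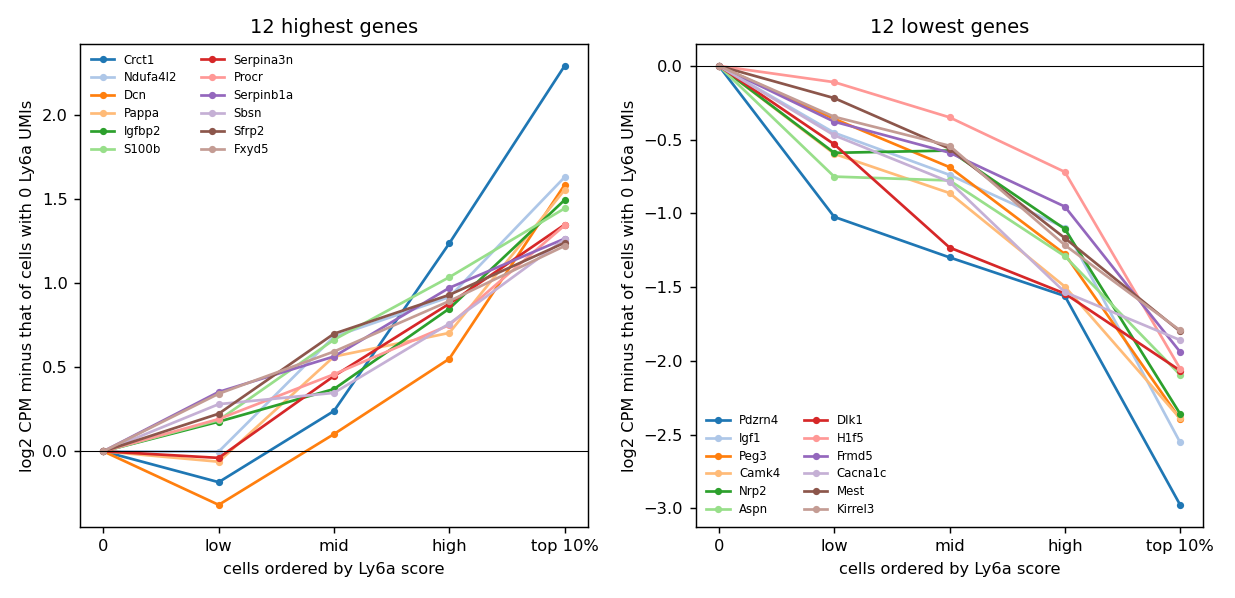
Change of the 12 highest (left) and 12 lowest (right) genes over the 5 groups of cultured cells ordered by Ly6a, as the log2 CPM of each group minus that of the cells with 0 Ly6a UMIs (low, mid and high are equal parts of the cells between). Igfbp2 ends at 1.49 and Peg3 at -2.40, and 11 of the 12 lowest genes decrease at each step.

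Within the Ly6 family, 5 genes besides Ly6a had at least 10 CPM. Ly6c1 had 1628 UMIs in the Sca1-highest cells (42.5 CPM, 40.4 to 44.6) and 75 UMIs in the cells without Ly6a (1.71 CPM, 1.34 to 2.14), a log2 ratio of 4.64 (4.30 to 4.99). Ly6c1 reached 10 CPM in the Sca1-highest cells alone, which fixed its direction. It was higher in all 3 depth bands (4.32, 4.90 and 6.23), and 310 of 454 Sca1-highest cells (68.3%) had a Ly6c1 UMI against 64 of 987 (6.48%). After thinning to 5000 UMIs the shares were 14.8% (11.6% to 18.4%) and 1.42% (0.778% to 2.37%), and 0 of the 15 blood-marked cells had one, which allows up to 21.8%.

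The ratio of Ly6c1 to Ly6a UMIs was computed in groups whose Ly6a ran from 20.97 to 663 CPM. For each 100 Ly6a UMIs there were 7.69 Ly6c1 UMIs (6.40 to 9.17), 5.8 (5.14 to 6.52) and 5.10 (4.75 to 5.47) in the cells between, in ascending order of Ly6a, and 6.40 (6.09 to 6.73) in the Sca1-highest cells. In the primary library there were 4.52 (2.87 to 6.80), 7.82 (5.75 to 10.4) and 3.98 (2.69 to 5.70) in the cells between and 6.29 (5.54 to 7.11) in the top 10%. Given the likeness of the transcripts shown above, how many of the Ly6c1 UMIs came from Ly6a transcripts was not tested, and the Ly6c1 values are uncertain for that reason. Ly6e, which shared 0 of its 4184 windows of 50 bases with any other gene, was at 81.4 against 77.3 CPM (log2 ratio 0.07). The GPI-anchored complement inhibitor Cd59a was lower, at 20.98 against 44.4 CPM (-1.08), and Lynx1 (13.6 against 10.1 CPM) and the urokinase receptor gene Plaur (48.1 against 67.6 CPM) differed by less than 1.5-fold.

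Sca1 marks fibroblast progenitors of the vessel wall, so a list of 28 genes known from such cells was examined. Of these 15 were measured, with a median log2 ratio of 0.15. Beside 2.54% and 16.9% over all genes, 5 were higher and 2 lower. With TMM scaling 6 were higher and 2 lower, beside 722 and 591 of all 8765 genes. The direction of 3 of the 5 (Thy1, Mfap5 and Pcolce2) and of both lower genes was fixed by the minimum, since each reached 10 CPM in 1 of the groups alone. Thy1, a GPI-anchored stromal surface protein, was at 19.5 against 4.78 CPM (log2 ratio 2.02, 1.80 to 2.25), the microfibril gene Mfap5 at 28.9 against 7.90 CPM (1.87), Pcolce2, which promotes collagen processing, at 22.4 against 9.47 CPM (1.24), the elastic fibre gene Efemp1 at 186 against 80.5 CPM (1.21) and the semaphorin Sema3c at 107 against 54.2 CPM (0.98). Col14a1 (5.38 against 22.2 CPM, -2.05) and Igfbp5 were lower. The defining markers of these progenitors were near the detection limit. Cd34 had 59 UMIs in the Sca1-highest cells (1.54 CPM) and 25 in the cells without Ly6a (0.569 CPM), Dpp4 was at 3.47 against 1.59 CPM, and Pi16 had 0 UMIs and 1 UMI. A Thy1 UMI was found in 73 of 454 Sca1-highest cells (16.1%) before thinning and in 6.17% (4.14% to 8.79%) after it, against 6.79% and 1.72% (1.01% to 2.74%) of the cells without Ly6a. Of the 15 blood-marked cells 6.67% (0.169% to 31.9%) had one after thinning. With so few cells the interval is too wide to tell whether the share in the Sca1-highest cells lay above that of the blood-marked cells.

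Of 13 measured genes of mesenchymal surface proteins used in sorting, 1 was higher and 3 were lower, beside 2.54% and 16.9% over all genes, with a median log2 ratio of -0.42. With TMM scaling 1 was higher and 2 were lower. Thy1 was higher, and Pdgfra (53.6 against 120 CPM, -1.17, -1.24 to -1.09), Pdgfrb (42.0 against 69.5 CPM, -0.73) and Alcam (48.3 against 103 CPM, -1.09) were lower. Of the 10 markers of the study that could be measured, Pdgfra alone passed 1.5-fold. The chemokine gene Cxcl12 was at 469 against 542 CPM (log2 ratio -0.21), Kitl, which encodes stem cell factor, at 59.1 against 64.3 CPM (-0.12), Vcam1 at 21.7 against 22.3 CPM (-0.04), Emb at 95.8 against 141 CPM (-0.56) and the transcription factor genes Prrx1 and Sox9 at 460 against 495 CPM (-0.11) and 76.0 against 80.0 CPM (-0.07). Col1a1 (635 against 742 CPM, -0.23) and Spp1 (6172 against 7079 CPM, -0.20) lay at the median of all genes, and Acta2, a gene of contractile cells, was at 1419 against 1221 CPM (0.22).

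Niche cytokines, the factors by which stroma acts on blood stem cells, had 0 higher and 6 lower genes of 15 measured, beside 2.54% and 16.9% over all genes. Their median of -0.21 was close to the -0.22 of all genes. With TMM scaling 0 were higher and 5 lower, beside 722 and 591 of all 8765 genes. The 6 genes lower without TMM scaling were Igf1, Angpt1 (7.31 against 32.0 CPM, log2 ratio -2.13), Lif (5.40 against 12.9 CPM, -1.26), Cxcl1 (17.6 against 33.9 CPM, -0.95), Il11 (5.56 against 10.2 CPM, -0.88) and Cxcl5 (34.1 against 55.6 CPM, -0.71). Over the 3 depth bands Cxcl1 was at -0.16, 0.94 and -1.40 and Cxcl5 at -0.29, 0.56 and 0.62, so neither was lower in all of them. Angpt1, Lif and Il11 reached 10 CPM in the cells without Ly6a alone, which fixed their direction. In the list of CXCL12-abundant reticular and perivascular stroma, 1 of 10 genes was higher, Nes, which encodes the intermediate filament nestin (22.4 against 10.7 CPM, 1.07), and Ebf1, Ebf3, Pdgfra and Pdgfrb were lower, Ebf1 at 269 against 501 CPM (-0.90). Over all genes the shares were 2.54% and 16.9%, and with TMM scaling 1 gene of this list was higher and 3 were lower.

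Of 10 measured interferon response genes 0 were higher and 0 lower, beside 2.54% and 16.9% over all genes. Their median log2 ratio was 0.21, or 0.43 with TMM scaling, and the values ran from -0.58 for Irf1, an interferon-induced transcription factor (7.78 against 11.6 CPM), to 0.36 for Ifi27 (209 against 162 CPM). Ifitm3, an antiviral membrane protein gene, was at 669 against 534 CPM (0.33). The same held for class I antigen presentation, with 0 of 8 genes called, a median of 0.07 and B2m at 281 against 264 CPM (0.09).

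Of 8 measured chondrocyte genes 0 were higher and 6 were lower, beside 16.9% lower over all genes, with a median log2 ratio of -1.03, and with TMM scaling, which added 0.22 to every log2 ratio, 5 were lower. Col2a1, the main collagen of cartilage, was at 300 against 569 CPM (-0.93, -0.96 to -0.89), with -1.42, -0.98 and -0.48 in the 3 depth bands. Col11a1 was at 280 against 617 CPM (-1.14), Sox5, a partner of Sox9, at 147 against 372 CPM (-1.34), the link protein gene Hapln1 at 4.25 against 11.0004 CPM (-1.37) and Cnmd, which encodes chondromodulin, at 1.23 against 11.8 CPM (-3.27). Comp was at 36.4 against 58.0 CPM (-0.67), but its ratio was 0.12 in the middle and 0.97 in the deepest band. Hapln1 and Cnmd reached 10 CPM in the cells without Ly6a alone. Acan, below the minimum for a call, was at 0.678 against 3.87 CPM. Pparg, the regulator of fat cell formation, was also lower, at 36.6 against 115 CPM (-1.65), and Runx2, needed for bone formation, at 79.3 against 137 CPM (-0.79).

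The shares of dividing cells had overlapping counting intervals in all groups. A cell with at least 10 UMIs of the S or G2M phase list after thinning was taken as dividing, and 88 of 454 Sca1-highest cells (19.4%, 15.8% to 23.3%), 201 of 987 cells without Ly6a (20.4%, 17.9% to 23.01%) and 686 of 3102 cells between (22.1%, 20.7% to 23.6%) were. Of 29 measured S phase genes 0 were higher and 14 were lower (median log2 ratio -0.57), beside 2.54% and 16.9% over all genes. Of the 14, 7 reached 10 CPM in the cells without Ly6a alone. With TMM scaling 7 of the 29 were lower, beside 591 of all 8765 genes. Examples are Pola1, a subunit of DNA polymerase alpha (12.7 against 25.5 CPM, -1.001), and the helicase subunit gene Mcm6 (13.8 against 25.5 CPM, -0.89). Of 41 G2M genes 1 was higher and 8 were lower (median -0.36), beside 16.9% lower over all genes, and with TMM scaling 4 were lower. The 8 included Top2a (40.8 against 73.5 CPM, -0.85) and Mki67 (40.2 against 71.3 CPM, -0.82).

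Among 13 p53 targets and cell cycle inhibitors 1 was higher and 2 were lower (median log2 ratio 0.01), beside 2.54% and 16.9% over all genes. With TMM scaling 3 were higher and 1 was lower. Gdf15, a cytokine induced by stress and by p53, was at 20.8 against 5.37 CPM (log2 ratio 1.95, 1.74 to 2.17). Gdf15 reached 10 CPM in the Sca1-highest cells alone, which fixed its direction. The inhibitor Cdkn1c was lower (19.3 against 50.6 CPM, -1.39), and Cdkn1a, the main p53 target, was at 765 against 535 CPM (0.52). Of 12 antioxidant and metallothionein genes 3 were higher and 0 lower (median 0.27), beside 2.54% and 16.9% over all genes. The 3 were the metal-binding Mt1 (926 against 565 CPM, 0.71) and Mt2 (204 against 132 CPM, 0.62) and the glutathione transferase Gstm1 (53.9 against 33.8 CPM, 0.67). With TMM scaling 6 of the 12 were higher, beside 722 of all 8765 genes. Of 11 immediate early genes 1 was higher and 4 were lower, beside 2.54% and 16.9% over all genes. Jund was higher (876 against 513 CPM, 0.77), and Fosb (81.2 against 170 CPM, -1.07), Nr4a1, Egr1 and Fos were lower. With TMM scaling 1 was higher and 2 were lower. Of 12 complement and acute phase genes 2 were higher and 2 lower (median -0.27), beside 2.54% and 16.9% over all genes. With TMM scaling the counts were also 2 and 2. Lcn2 (81.7 against 38.1 CPM, 1.10) and Serpina3n were higher. Saa3 (48.2 against 93.9 CPM, -0.96) and Serpina3g (7.57 against 14.8 CPM, -0.97) were lower. Serpina3g reached 10 CPM in the cells without Ly6a alone, which fixed its direction.

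Markers of other cell types were examined in the same cells. The haematopoietic list summed to 12.4 CPM in the Sca1-highest cells and 56.4 CPM in the cells without Ly6a, Pf4 being at 0.391 against 11.7 CPM and Lyz2 at 4.07 against 20.9758 CPM. Pf4 and Lyz2 reached 10 CPM in the cells without Ly6a alone, which fixed their direction. Over the 3 depth bands the log2 ratio was -3.98, 0.51 and -0.42 for Pf4 and -2.73, 0.88 and 0.72 for Lyz2, and Lyz2 was at 0.63 without the blood-marked cells. Without the 15 blood-marked cells 227 genes were higher and 1469 lower. The endothelial list summed to 32.5 against 36.6 CPM, and 4 of its 13 genes had 0 UMIs in the Sca1-highest cells. The endothelial cadherin gene Cdh5 had 6 UMIs in the Sca1-highest cells and 0 in the cells without Ly6a, and Pecam1 had 9 and 14. Of the smooth muscle and pericyte list, 1 of 10 measured genes was higher (Cnn1, 94.8 against 53.6 CPM, 0.82) and 3 were lower, or 1 and 1 with TMM scaling. Over all genes the shares were 2.54% and 16.9%. S100b was the only measured gene of the Schwann cell list. In fibrillar matrix genes 1 of 15 was higher, Dcn, and Col3a1, Col5a2 and Tnc were lower, Tnc at 200 against 384 CPM (-0.94). The 3 lower of 15 lay near the 16.9% over all genes, and with TMM scaling 1 was higher and 1 lower. Of the other lists, 2 of 12 TGF-beta target genes were lower (Ccn1 and Tgfbi, median -0.31, 1 with TMM scaling, beside 16.9% over all genes), 3 of 6 hypertrophic chondrocyte genes (Runx2, Mef2c and Vegfa, -0.40) and 2 of 6 adipogenic genes (Pparg and Fabp5, -0.32), and 0 were higher in any of these 3 lists. With TMM scaling 0 of the hypertrophic chondrocyte and 2 of the adipogenic genes were lower. Of 5 tenocyte genes Dcn was higher and Egr1 and Tnc were lower, or 1 and 1 with TMM scaling. Of 2 skeletal muscle genes Acta1 was lower (8.87 against 32.3 CPM), also with TMM scaling. The shares over all genes were again 2.54% and 16.9%. Acta1, Tgfbi and the lower smooth muscle gene Actg2 reached 10 CPM in the cells without Ly6a alone, which fixed their direction. With TMM scaling the medians of the niche cytokine, reticular stroma, smooth muscle, fibrillar matrix and immediate early lists turned from below to above 0, at 0.01, 0.05, 0.08, 0.01 and 0.06.

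**Figure D4:**
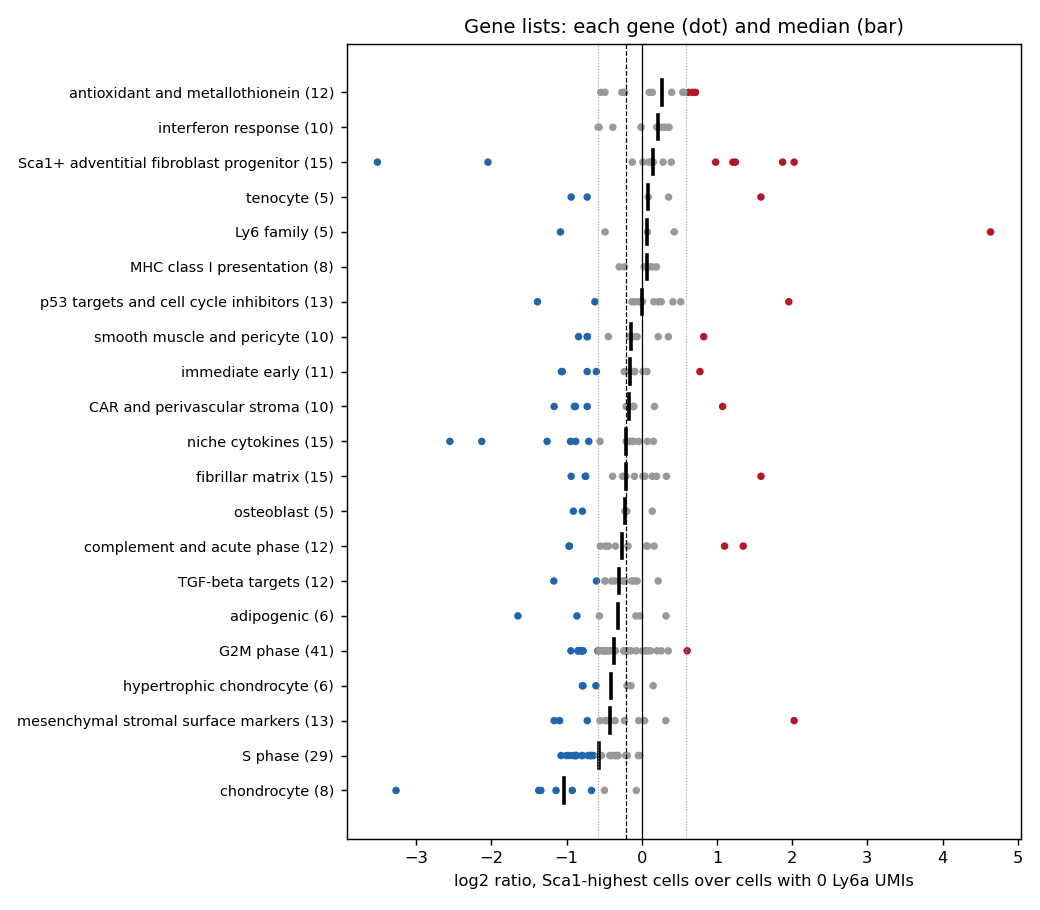
Log2 ratio of each measured gene (dot) and the median (bar) for gene lists with at least 5 measured genes, whose number stands in brackets. Red and blue dots are past 1.5-fold and the dashed line is the median of all genes at -0.22. Chondrocyte genes have the lowest median, -1.03, and antioxidant and metallothionein genes the highest, 0.27.

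The Sca1-highest cells did not form a separate cluster. When the cultured cells were clustered with Ly6a left out, they were found in 10 of 11 clusters. Their share was highest in cluster 5, led by Cyp26b1, Gpx3 and Bmp4 (96 of 400 cells, 24%, 19.9% to 28.5%), and in cluster 3, led by Klk8, Slpi and Ndufa4l2 (125 of 558 cells, 22.4%, 19.01% to 26.1%), against 10% over all cells. It was lowest among larger clusters in cluster 2, led by Mmp13, Gdf10 and Sfrp4 (24 of 762 cells, 3.15%, 2.03% to 4.65%), and in cluster 8, led by histone genes (10 of 313 cells, 3.19%). Cluster 11, whose 9 cells expressed blood cell genes such as Pf4, held 0 of them, which allows a share of up to 33.6%. Cluster 3 differed from the others in its quality measures, with a median mitochondrial share of 0.672% and a long-gene share of 6.54%, and it held 27.5% of the Sca1-highest cells. The part of these measures in the clustering was not tested.

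Most of the ratios were also present inside clusters. In 8 clusters with at least 20 cells of each kind, Igfbp2, Pappa, S100b, Serpina3n, Procr, Sbsn, Fxyd5 and Ndufa4l2 were higher in all 8, and Peg3, Mest, Camk4, Frmd5, Cacna1c and Kirrel3 were lower in all 8. Igfbp2 ranged from 0.24 in cluster 10 to 1.98 in cluster 1 on the log2 scale. Sfrp2 was higher in 4 of 8 clusters only, from -2.36 in cluster 10 to 2.73 in cluster 5, and Pdzrn4, Aspn and H1f5 were lower in 6. Within-cluster ratios rest on fewer cells and were not tested.

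The Sca1-highest cells were compared with the top cells by 8 other scores. By construction 10% of all cells are in the top 10% of any score. Of the Sca1-highest cells 6.83% (4.69% to 9.55%) were in the top 10% by Cxcl12, 6.17% (4.14% to 8.79%) by Sox9, 5.29% (3.42% to 7.76%) by Il1rl1 and Hmcn1, 6.83% by Mmp13 and Comp and 8.37% (5.99% to 11.3%) by fibrillar collagens. For the S phase and G2M lists the shares were 4.85% (3.06% to 7.24%) and 7.49% (5.24% to 10.3%). Only the contractile genes Acta2 and Tagln had a share above 10%, 11.9% (9.06% to 15.2%), and its interval included 10%.

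The same ranking in the primary library, which the choice of the cells did not use, gave 1095 cells of 10959, with 271 CPM of Ly6a, and 8399 cells without a Ly6a UMI. Primary cells were shallower, with a median of 10432 UMIs, so that a primary cell in the top 10% could have a single Ly6a UMI and the median was 3. Of 7847 genes tested there, 291 (3.71%) were higher and 434 (5.53%) were lower. Y-linked genes, summed over 4 of them, stood at 232 CPM in the cultured and 4.26 CPM in the primary library, so the libraries came from cells that differed in Y-linked RNA. Culture, animals and preparation cannot be told apart.

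Of the cultured genes called higher, 110 were measured in the primary library, where 20 of them were higher (18.2%) and 8 lower. Of the cultured genes called lower, 1213 were measured there, of which 128 were lower (10.6%) and 44 higher. Ndufa4l2 was at 348 against 192 CPM (log2 ratio 0.86) and Serpina3n at 92.7 against 45.0 CPM (1.04) in the primary cells. Dlk1 (1505 against 2407 CPM, -0.68), Mest (143 against 222 CPM, -0.64), Camk4 (59.6 against 129 CPM, -1.12) and Kirrel3 (15.1 against 27.5 CPM, -0.87) were lower there too, and Peg3 was at 879 against 1170 CPM (-0.41). Col2a1, lower in the cultured Sca1-highest cells, was at 67636 against 48834 CPM (0.47) in the primary ones, and Cnmd was at 4123 against 3321 CPM (0.31). The endothelial markers Cdh5 (5.36 against 0.303 CPM) and Pecam1 (11.2 against 2.90 CPM, 1.94) were higher in the primary Ly6a-highest cells. Cdh5 was below 10 CPM in both groups, and Pecam1 reached 10 CPM in the Ly6a-highest cells alone, which fixed its direction. Of 5 measured endothelial genes 3 were called higher there, beside 3.71% over all genes of the primary library.

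**Figure D5:**
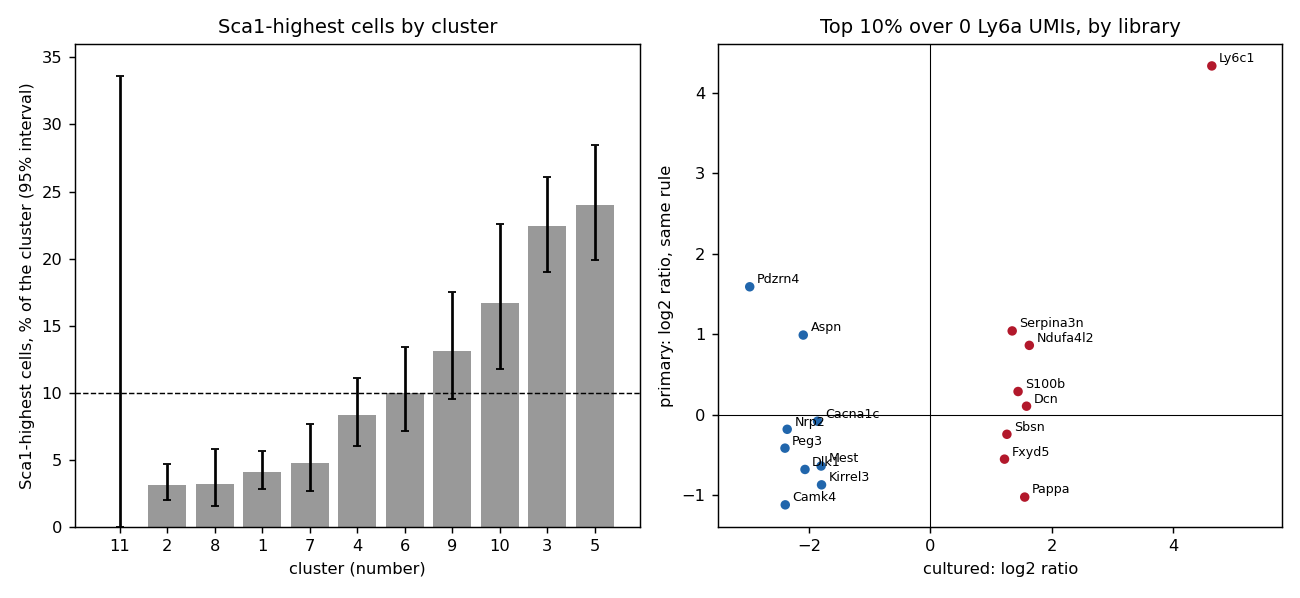
Left, share of Sca1-highest cells in each of 11 clusters of cultured cells with its 95% interval and a dashed line at 10%. Right, log2 ratio of the top 10% over the cells with 0 Ly6a UMIs in the cultured (horizontal) and the primary library (vertical) for the 12 highest and 12 lowest genes with at least 10 CPM in the primary cells, and for Ly6c1, which is at 4.64 and 4.33.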

How the data were processed

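Single-cell RNA sequencing was performed by the authors on 1 library of primary and 1 library of cultured CDSCs on a MobiDrop and Chromium workflow with a 3′ kit. The files deposited by the authors hold unnormalised UMI counts, written by Cell Ranger 7.0.0 per the file headers and aligned by the authors to GRCm38 (the labels also list GRCm39), and the annotation release is not given in the sources used here. Filtering required 500 genes, 5000 UMIs and no more than 10% mitochondrial UMIs, which left 4543 of 10798 cultured and 10959 primary barcodes. The libraries shared 32 barcodes, 0 of them among the Sca1-highest cells.

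Counts were summed over the cells of a group and scaled to CPM. A log2 ratio had counts under 3 raised to 3, with no ratio where both were at or under 3. Intervals were exact (Poisson for sums, Clopper-Pearson for shares, conditional for ratios) at 95%. With 38325081 UMIs in the Sca1-highest cells and 43907639 in the cells without Ly6a, counting error was small. Cells are not replicates, so no test was run, and the scripts were tested on simulated data. The genes named are the 12 highest and 12 lowest with at least 50 CPM and the same side of 1 in each depth band, without mitochondrial and ribosomal protein genes, members of the gene lists with at least 10 CPM, and the study's 13 markers. The cells and lists were chosen with earlier results of these data known, and several lists share genes.

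Thinning drew UMIs without replacement. Clusters were made with scanpy 1.11.5 and leidenalg 0.10.2 at resolution 0.5 and named by number only. Scrublet called 3 doublets and had not worked, so the 363 highest scores were left out only as an alternative, among them 21 of the 454 Sca1-highest cells (4.63%). TMM factors came from edgeR 4.0.16. Coordinates and spans came from GENCODE for 21758 of 21849 genes by identifier, and coding sequences from its transcripts. The alternatives covered cell weight, depth, share of cells, comparison group, scaling, expression minimum, doublets, dividing cells and mitochondrial share. Results for some genes are not reported here.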

Additional observations from a re-analysis of the deposited data

Results flagged for a closer look

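In 7 of the 271 named genes the Ly6a-highest cells lay on opposite sides of the cells with 0 Ly6a UMIs in the libraries, by at least 1.5-fold in each. Over all genes called in the cultured cells and measured in the primary ones, 8 of 110 higher and 44 of 1213 lower genes did so. Pdzrn4 had a log2 ratio of -2.98 in the cultured and 1.59 in the primary cells (50.9 against 16.9 CPM), and Aspn had -2.09 and 0.99 (166 against 83.4 CPM). Pappa had 1.55 in the cultured and -1.02 in the primary cells (5.42 against 10.9996 CPM). Of the gene lists, Acta1 had -1.86 and 0.81 (20.2 against 11.5 CPM in the primary cells), Fabp5 -0.86 and 0.89 (21.7 against 11.7 CPM), Pparg -1.65 and 0.66 (18.03 against 11.4 CPM) and Sema3c 0.98 and -0.72 (44.6 against 73.5 CPM). Pappa in the primary and Acta1 in the cultured library reached 10 CPM in the cells without Ly6a alone, which fixed their direction there. With 1 library each, the difference between the libraries was not tested.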

How the results depend on the processing

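The 223 higher and 1483 lower genes became 735 and 579 with TMM scaling, 528 and 2453 with a minimum of 1 CPM, 111 and 660 with a minimum of 50 CPM, and 85 and 403 against all other cells. With the top 20% of cells 147 genes were higher. The lower genes numbered 764 when cells were weighted to the depth of the Sca1-highest cells and 786 at a long-gene share at or below the median, the latter chosen after seeing the data. The cause was not tested, beyond the fewer or more genes that the minimums admit. Of 3521 recomputed ratios of 271 named genes, 12 reversed. Reversals were counted only for genes past 1.5-fold in the main setting, 106 of the 271. Sign changes of the other genes are not in that count. Mmp13, at -0.14, ran from -1.71 at the lower long-gene share to 2.66 in the deepest band. Acta2, at 0.22, ran from -0.70 weighted to depth to 0.54 with the top 5% of cells. In the deepest depth band (added after seeing the data) Actg2 turned to 0.094, Comp to 0.97, Cxcl5 to 0.62, Lyz2 to 0.72 and Cdh5 to -1.23, and weighted to depth Actg2 to 0.54, Comp to 0.39 and Cxcl5 to 0.53. Without dividing cells Clspn turned to 0.19 and Kif11 to 0.10, at the lower long-gene share Ube2c to -0.60, and without blood-marked cells (also added) Lyz2 to 0.63. The median log2 ratio of list Schwann turned to -0.058 with a minimum of 1 CPM. No paired analysis was possible because the labels carry no replicate numbers, and with 1 library per group none could be left out. Low genes rested on few counts, such as Cd34 on 59 and 25 UMIs.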

Other observations

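Several neighbouring genes of 1 protease inhibitor family were raised in the Sca1-highest cells. They were chosen after their values were seen. Of 16 Serpinb genes on chromosome 13 in the files, which encode intracellular inhibitors of proteases, 5 were tested, 4 were at least 1.5-fold higher and 0 lower, but Serpinb9b and Serpinb6b reached 10 CPM in the Sca1-highest cells alone, so the minimum fixed their direction. Over all genes 2.54% were higher and 16.9% lower. Serpinb9b was at 42.7 against 2.98 CPM (log2 ratio 3.84, 3.58 to 4.11), with a UMI in 185 of 454 Sca1-highest cells (40.7%) and in 70 of 987 cells without Ly6a (7.09%), and its ratio was 3.17, 3.89 and 3.62 in the depth bands. Serpinb6b was at 30.4 against 6.86 CPM (2.15), Serpinb1a at 255 against 106 CPM (1.26) and Serpinb6a at 510 against 276 CPM (0.89), and Serpinb9 was at 49.002 against 37.3 CPM (0.40). Members of this family are close relatives, and reads that they share were not examined, so values of single members are uncertain.

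Genes of the cornified envelope of skin, which lie together on chromosome 3, were nearly silent, and only 2 of 42 in the files reached 10 CPM. These were Crct1, given above, and Lce3c, which reached that minimum in the Sca1-highest cells alone. Lce3c was at 10.9 against 1.73 CPM (log2 ratio 2.66, 2.30 to 3.03), in 25 of 454 cells (5.51%) against 23 of 987 (2.33%). The highest cell had 369 Crct1 UMIs, and another had 190 Lce3c UMIs. The 10 highest cells held 95.5% of the Lce3c UMIs.

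Imprinted genes of growth control were collected in a list after Peg3, Mest and Dlk1 had been seen among the lowest genes, so their count is a description of genes chosen in view of the values. Of 12 measured, 0 were higher and 8 were lower (median log2 ratio -0.70, 5 lower with TMM scaling), beside 16.9% lower over all genes, and Zim1 reached 10 CPM in the cells without Ly6a alone. Besides those 3 genes and Cdkn1c these were Zim1, the neighbour of Peg3 (2.17 against 13.5 CPM, -2.64), Plagl1, a zinc finger gene (63.6 against 105 CPM, -0.72), the growth factor Igf2 (20.9 against 33.5 CPM, -0.68) and its receptor Igf2r (106 against 162 CPM, -0.61). Grb10 (-0.27), Sgce (-0.33), Gnas (0.07) and Ndn (0.31) differed by less than 1.5-fold. In the primary library 0 of 15 were higher and 5 lower, beside 3.71% and 5.53% over all genes there. Among the 5, Cdkn1c was at 258 against 720 CPM (-1.48) and Plagl1 at 604 against 960 CPM (-0.67).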
